A study of Mus musculus with 4 samples.

Results

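The description covers 6 of the 32285 genes in the deposited matrices: Txnip, Tsc22d3, Fkbp5, Ddit4, Per1 and Nr3c1. They were selected by name as a group of glucocorticoid-responsive genes with the glucocorticoid receptor, after ratios between these same libraries had been seen, so the genotype ratios below are a description and support nothing further. All 6 symbols matched 1 row each. They were read in CD8 cells (at least 1 UMI of Cd8a or Cd8b1 and none of Cd4), conventional CD4 cells (at least 1 UMI of Cd4 and none of Foxp3), regulatory cells (at least 1 UMI each of Foxp3 and Cd4) and Siglech cells (at least 2 UMIs of Siglech). A UMI is a molecular tag that stands for 1 captured RNA molecule.

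The study asked what VISTA, an inhibitory checkpoint receptor encoded by Vsir, does within T cells of B16 melanoma under CTLA-4 blockade. WT mice were Vsir fl/fl littermates, and VISTA-KO mice were Vsir fl/fl with CD4-Cre, a transgene that deletes floxed DNA in developing T cells and so leaves Vsir in the other cells of the host. The mice were on the C57BL/6 background. Mice of both groups were 6 to 8 weeks old, were given a TRP2 peptide vaccine with CpG and R848 on day 3 and anti-CTLA-4 on days 4 and 8, and tumor-infiltrating lymphocytes (TILs) were taken on day 18 after treatment. For each genotype CD4+ and CD8+ TILs of several pooled mice, whose number the sources give differently in different places, were sorted together into 1 library, so genotype, pool, sort and library cannot be told apart and no test between genotypes was possible.

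The WT library held 72098984 UMIs over 10337 barcodes and the VISTA-KO library 59916814 over 10085, of which 10224 and 9946 passed filters, and 145 barcodes occurred in both. The classes held 5549 WT and 4350 VISTA-KO CD8 cells, 1768 and 3048 conventional CD4 cells, 1528 and 1270 regulatory cells, and 221 and 138 Siglech cells. The T cell classes overlap with the Siglech class. Also counted as Siglech cells were 67 WT and 49 VISTA-KO CD8 cells, 107 and 65 conventional CD4 cells, and 37 and 10 regulatory cells. Only 10 WT and 14 VISTA-KO Siglech cells were in no T cell class, so Siglech cells are not a separate set. Median depth was close between the libraries in CD8, conventional CD4 and Siglech cells but not in regulatory cells, where it was 8839 UMIs in WT and 5939 in VISTA-KO. Levels below are UMIs of a gene per 1000000 UMIs of the class (CPM). Vsir stood at 112 CPM (WT) and 111 CPM (VISTA-KO) CD8 cells. The tables do not record where in a gene a read lies, so this does not check the deletion, and WT and VISTA-KO below are the labels of the libraries. Both libraries carried Xist, and Ddx3y was at 0 UMIs in every class. Cd3e stood between 1321 and 1583 CPM in the T cell classes of both libraries. In Siglech cells all 8 markers fixed for plasmacytoid dendritic cells were detected, with a summed level of 13485 CPM (WT) and 15574 CPM (VISTA-KO), but Cd3e was not absent, at 401 CPM and 210 CPM. RNA of Cd8b1 was also present in conventional CD4 cells, at 524 CPM (WT) and 266 CPM (VISTA-KO). Regulatory cells held it too, at 517 CPM and 233 CPM. In CD8 cells Foxp3 stood at 37.1 CPM (WT) and 19.7 CPM (VISTA-KO). Each T cell class thus held RNA of another class, and these levels were higher in WT.

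Glucocorticoids are steroid hormones that enter the cell and bind the glucocorticoid receptor, encoded by Nr3c1, which then moves to the nucleus and switches on genes that dampen activation in lymphocytes. Tsc22d3 encodes GILZ, a classic target in T cells that restrains NF-κB and AP-1. Fkbp5 encodes a co-chaperone that lowers the affinity of the receptor for its hormone, Ddit4 encodes REDD1, which brakes mTORC1, and Per1 is a clock gene that hormone also induces. Txnip encodes an arrestin family protein that binds thioredoxin and limits glucose uptake. It is best known as a sensor of glucose and of growth signals, and it is high in resting and low in activated T cells.

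The promoters are shown first. Those of Txnip and Tsc22d3, both lower in VISTA-KO T cells, can be set beside those of Fkbp5 and Per1. Fkbp5 changed direction with the class, and Per1 was higher in VISTA-KO in each T cell class. Each sequence is the 250 bases upstream of a RefSeq start in GRCm38.p6, 5′ to 3′ on the strand of the gene, with motif matches in capitals. Windows were found for 5 of the 6 genes, all but Nr3c1. Txnip lies on the forward strand at chr3:96557707-96557956, Tsc22d3 (the first of its 3 windows) on the reverse strand at chrX:140600523-140600772, Fkbp5 on the reverse strand at chr17:28486150-28486399 and Per1 (the first of its 2 windows) on the forward strand at chr11:69098699-69098948.
Txnip: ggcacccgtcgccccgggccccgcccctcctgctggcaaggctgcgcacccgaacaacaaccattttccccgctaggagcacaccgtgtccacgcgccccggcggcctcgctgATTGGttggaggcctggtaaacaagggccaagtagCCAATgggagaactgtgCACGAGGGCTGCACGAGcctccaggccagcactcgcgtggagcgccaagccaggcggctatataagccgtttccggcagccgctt
Tsc22d3: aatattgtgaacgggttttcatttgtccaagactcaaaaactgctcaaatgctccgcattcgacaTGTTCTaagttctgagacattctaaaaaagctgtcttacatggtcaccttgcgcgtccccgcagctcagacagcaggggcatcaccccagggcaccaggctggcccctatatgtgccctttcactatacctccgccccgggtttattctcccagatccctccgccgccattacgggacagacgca
Fkbp5: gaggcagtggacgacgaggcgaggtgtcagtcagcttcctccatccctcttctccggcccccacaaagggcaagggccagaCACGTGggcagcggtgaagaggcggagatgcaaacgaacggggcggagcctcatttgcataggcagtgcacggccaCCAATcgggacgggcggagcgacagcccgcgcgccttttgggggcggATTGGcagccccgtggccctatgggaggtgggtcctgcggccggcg
Per1: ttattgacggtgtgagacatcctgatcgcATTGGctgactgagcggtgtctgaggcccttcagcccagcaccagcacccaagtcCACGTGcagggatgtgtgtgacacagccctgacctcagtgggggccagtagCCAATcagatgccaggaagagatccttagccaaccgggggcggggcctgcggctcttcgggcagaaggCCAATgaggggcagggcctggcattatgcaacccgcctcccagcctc

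In all 5 motifs were searched, each on both strands. The full glucocorticoid response element, spelled as AGAACA, any 3 bases and TGTTCT, was in none of the 8 windows of the members and in 3 of 32851 windows (0.00913%). Its arm AGAACA, found in 16.1% of windows, was present among the members only in the Tsc22d3 window shown, where it reads TGTTCT at positions -185 to -180 from the start. Windows 2 and 3 of Tsc22d3, not shown, held no match, and which start these cells used was not tested. The Txnip window held a pair of CACGAG boxes with 5 bases between them, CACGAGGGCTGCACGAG, at -85 to -69. That spelling was chosen because it is the known glucose-responsive element of this promoter, so the match was fixed in advance. The 1 of 32851 windows that held it was this Txnip window. The E-box CACGTG, found in 6.02% of windows, was present in the windows of Fkbp5 at -169 to -164 and Per1 at -166 to -161. The CCAAT box, in 33.8% of windows, accounts for the other capitals. The window of Ddit4, a gene also lower in VISTA-KO in each T cell class, is not shown and held only CCAAT boxes. The paired CACGAG box and the CCAAT box were added to the search after the data had been seen. A match is a description of letters in a window and does not show that a factor binds there. The full response element is so rare as spelled that its absence from 8 windows shows nothing about the receptor. Looser spellings of the full element and sites outside the windows were not searched.

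Txnip was lower in the VISTA-KO library in all 3 T cell classes and level in Siglech cells. Brackets after a value hold its exact 95% interval, which covers counting error only. In CD8 cells Txnip stood at 401 CPM (WT) and 225 CPM (VISTA-KO), a ratio of 0.562 (0.546 to 0.579). In conventional CD4 cells it stood at 542 CPM and 243 CPM, a ratio of 0.449 (0.431 to 0.467). In regulatory cells it stood at 314 CPM and 166 CPM, a ratio of 0.528 (0.499 to 0.558). The WT library was thus the higher one in each T cell class, and the intervals of the levels did not overlap. Siglech cells had 335 CPM (WT) and 336 CPM (VISTA-KO), a ratio of 1.00 (0.895 to 1.12). The order of the classes also differed between the libraries. In WT conventional CD4 cells were highest and then CD8 cells, with Siglech and regulatory cells last and their intervals overlapping. In VISTA-KO Siglech cells were highest, conventional CD4 and CD8 cells followed, and regulatory cells were lowest.

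Tsc22d3 was lower in the VISTA-KO library in all 4 classes. It stood at 332 CPM (WT) and 194 CPM (VISTA-KO) CD8 cells, a ratio of 0.582 (0.564 to 0.601). In conventional CD4 cells the levels were 464 CPM and 238 CPM and the ratio 0.514 (0.493 to 0.536). In regulatory cells they were 303 CPM and 188 CPM, a ratio of 0.620 (0.587 to 0.654). As with Txnip, the conventional CD4 cells had both the highest WT level and the lowest ratio. Siglech cells, where Txnip was level, had Tsc22d3 at 330 CPM and 196 CPM, a ratio of 0.596 (0.519 to 0.683). The WT Siglech cells held more T cell RNA, Cd3e included, than the VISTA-KO ones. When Siglech cells with a UMI of Cd3e, Cd3d or Trac were left out, a step added after the data had been seen, 131 WT and 96 VISTA-KO cells remained, and the ratio was 1.01 (0.866 to 1.18) for Txnip and 0.628 (0.518 to 0.760) for Tsc22d3.

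Fkbp5 was a gene of low counts whose direction changed with the class. It stood at 21.3 CPM (WT) and 16.3 CPM (VISTA-KO) CD8 cells, a ratio of 0.764 (0.680 to 0.858). Conventional CD4 cells had 25 CPM and 24.1 CPM, a ratio of 0.965 (0.824 to 1.13). In regulatory cells it was higher in VISTA-KO, at 19.2 CPM and 24.0 CPM, a ratio of 1.25 (1.06 to 1.48). The regulatory cells of VISTA-KO were also the shallower ones, as given above. With every cell thinned to 2000 random UMIs the ratio was 1.42, and a Fkbp5 UMI was found in 52 of 1483 WT cells, a share of 3.51% (2.63 to 4.57), against 61 of 1219 VISTA-KO cells. At this depth the interval of the VISTA-KO share (3.85 to 6.38) overlapped that of WT. Siglech cells held 63 Fkbp5 UMIs in WT and 21 in VISTA-KO, a ratio of 0.597 (0.346 to 0.991) that reached from a large difference to almost none.

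Ddit4 was lower in the VISTA-KO library in all 4 classes, with ratios from 0.366 to 0.896. In CD8 cells it stood at 132 CPM (WT) and 90.6 CPM (VISTA-KO), a ratio of 0.685 (0.653 to 0.718). Conventional CD4 cells had 182 CPM and 122 CPM, a ratio of 0.669 (0.628 to 0.713). Regulatory cells had the highest level of Ddit4 in both libraries, at 426 CPM and 381 CPM, and a ratio nearer to 1, at 0.896 (0.861 to 0.932). Siglech cells had 151 CPM and 55.2 CPM, a ratio of 0.366 (0.284 to 0.468). In the Siglech cells without T cell receptor complex UMIs the Ddit4 ratio was 0.143 (0.0810 to 0.236), from 150 WT and 17 VISTA-KO UMIs.

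Per1 ran the other way in T cells. It stood at 61.0 CPM (WT) and 65.4 CPM (VISTA-KO) CD8 cells, a ratio of 1.07 (1.01 to 1.14). Conventional CD4 cells had 76.2 CPM and 88.4 CPM, a ratio of 1.16 (1.06 to 1.27), and regulatory cells had 74.4 CPM and 89.7 CPM, a ratio of 1.21 (1.11 to 1.31). All 3 differences were small beside those of Txnip. In Siglech cells Per1 stood at 76.2 CPM and 66.4 CPM, a ratio of 0.872 whose interval (0.675 to 1.12) included 1.

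Nr3c1, the receptor itself, differed little. CD8 cells had 115 CPM (WT) and 107 CPM (VISTA-KO), a ratio of 0.930 (0.887 to 0.974). Conventional CD4 cells had the highest WT level, at 199 CPM against 187 CPM, a ratio of 0.939 (0.888 to 0.993). Regulatory cells had 175 CPM and 187 CPM, a ratio of 1.07 (1.01 to 1.13). The receptor was thus within a small distance of level in each T cell class, while Txnip and Tsc22d3 were not. Siglech cells had 112 CPM and 124 CPM, a ratio of 1.11 (0.912 to 1.34).

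**Figure D1:**
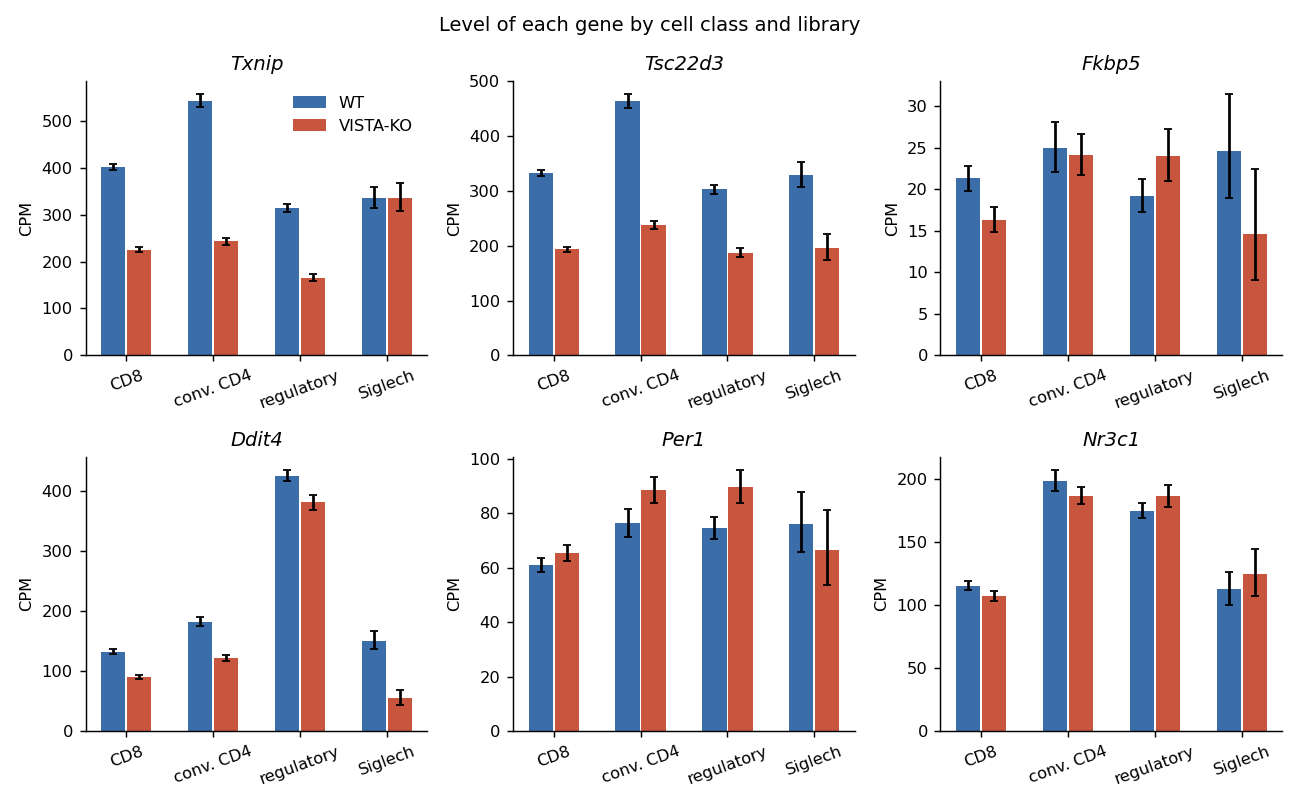
Level of each gene, in CPM, in the 4 cell classes, with WT in blue, VISTA-KO in red and error bars for exact 95% Poisson intervals of counting error. The red bars of Txnip and Tsc22d3 are well below the blue ones in the 3 T cell classes, while those of Nr3c1 and Per1 are close to them.

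**Figure D2:**
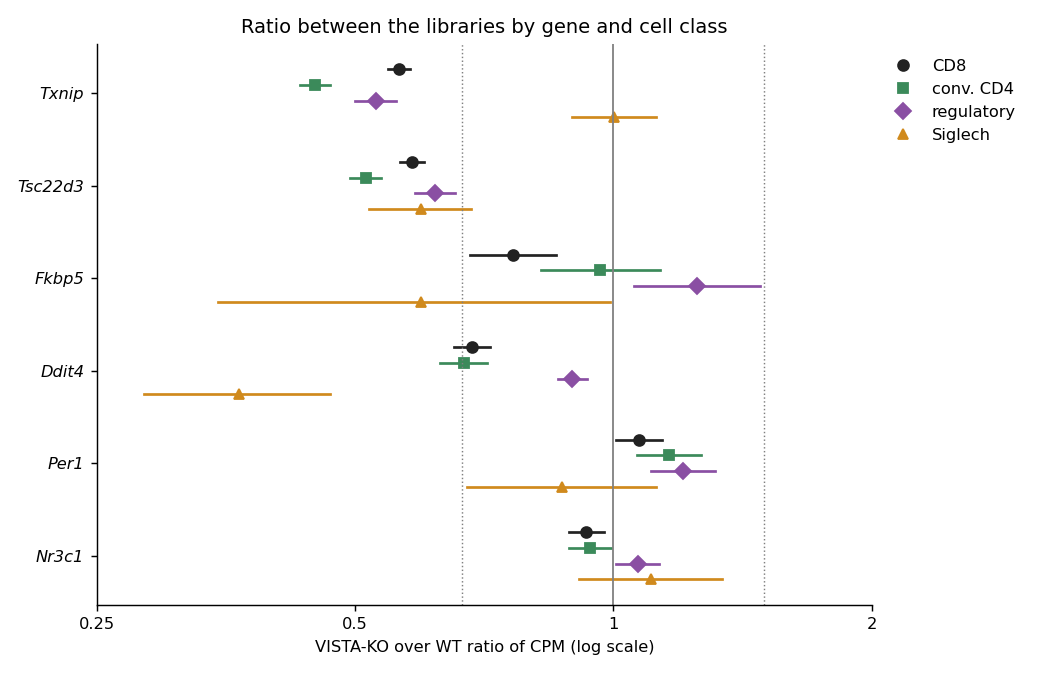
VISTA-KO over WT ratio of CPM on a log scale, by gene and cell class, with exact 95% intervals of counting error. The solid line is a ratio of 1 and the dotted lines mark 1.5-fold. Txnip spans 0.449 in conventional CD4 cells to 1.00 in Siglech cells.

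A gene was counted as lower or higher where its ratio was at least 1.5-fold from 1, provided that it reached 20 CPM in either library in that class. Txnip and Tsc22d3 were the 2 of 6 members counted as lower in CD8, conventional CD4 and regulatory cells, and Tsc22d3, Fkbp5 and Ddit4 were the 3 counted in Siglech cells, with 0 members higher in any class. Of all genes tested, 0.658% were lower in CD8 cells, 2.64% in conventional CD4 cells, 2.36% in regulatory cells and 5.18% in Siglech cells. Higher genes made up 1.05%, 1.33%, 2.5% and 3.37% in the same order. Because the members were chosen on this contrast, nothing is read from their count. Nearest to the threshold were Tsc22d3 in regulatory cells at 0.620, just inside, and Ddit4 in conventional CD4 cells at 0.669, just outside. The median log2 ratio of the 6 members was -0.47 in CD8, -0.33 in conventional CD4, -0.03 in regulatory and -0.47 in Siglech cells, beside -0.03, -0.04, -0.01 and -0.03 over all genes tested.

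Txnip and Tsc22d3 were also read in subsets of the T cells. T cells were divided by UMIs of a few genes into 12 subsets. Dividing cells (at least 2 UMIs of Mki67 and Top2a) were set apart first, then CD8 and conventional CD4 cells were divided by Pdcd1, with Havcr2 or Cxcr6, and regulatory cells by Itgae and Il1rl1. Txnip was lower in VISTA-KO in 12 of 12 subsets, with the interval below 1 in all of them and 10 past 1.5-fold. Tsc22d3 was likewise lower in 12 of 12 subsets, with 11 past 1.5-fold. The exception came when classes and subsets were set again on cells thinned to 2000 UMIs. Dividing regulatory cells then held 22 WT and 16 VISTA-KO cells, with ratios above 1 (Txnip 1.11, Tsc22d3 1.09), and the other 11 subsets stayed below 1 for both genes. The subsets are cells of the same 2 libraries and are not replicates.

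In WT CD8 cells Txnip was graded across the subsets. It was highest in cells with no Pdcd1 (605 CPM), followed by cells with Pdcd1 without Havcr2 (497 CPM), Pdcd1 with Havcr2 (242 CPM) and dividing cells (158 CPM), and the intervals of neighbours did not overlap. In VISTA-KO the same subsets had 305, 241, 208 and 116 CPM, in the same order and again without overlap of neighbours. The gap between the libraries was therefore wide at the top of this order and narrow at the bottom. Median depth rose along this order, at 4060, 4851, 8071.5 and 14037 UMIs in WT and 4483, 5073, 7158 and 10831 UMIs in VISTA-KO. The subsets were set by UMIs without thinning, so a cell with no Pdcd1 UMI may still hold its RNA. The part of depth in the order was not tested. The ratio was 0.504 (0.482 to 0.527) in CD8 cells with no Pdcd1, 0.485 (0.459 to 0.512) in those with Pdcd1 and without Havcr2, 0.736 (0.676 to 0.801) in dividing cells and 0.860 (0.789 to 0.937) in cells with Pdcd1 and Havcr2, the genes of PD-1 and TIM-3. Tsc22d3 in the last subset was at 237 CPM (WT) and 145 CPM (VISTA-KO), a ratio of 0.613 (0.557 to 0.674), so here the pair parted.

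The lowest ratios of both genes were in conventional CD4 cells with Pdcd1 and without Cxcr6, 195 cells in WT and 232 in VISTA-KO. There Txnip stood at 805 CPM and 201 CPM, a ratio of 0.250 (0.211 to 0.295). Tsc22d3 stood at 660 CPM and 219 CPM, a ratio of 0.332 (0.281 to 0.391). Ddit4 had its lowest ratio of the 12 subsets in the same cells, 0.308 (0.232 to 0.407), as did Nr3c1, 0.663 (0.554 to 0.793). In the other subsets Ddit4 reached up to 1.00 in regulatory cells with Itgae, and it was below 1 in 11 of 12 subsets, with 5 past 1.5-fold. Fkbp5 was below 1 in 7 of 12, Nr3c1 in 9 and Per1 in 2. The interval was below 1 in only 1 subset for Fkbp5, 4 for Nr3c1 and 0 for Per1. It was above 1 in 1 subset for each of these genes.

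**Figure D3:**
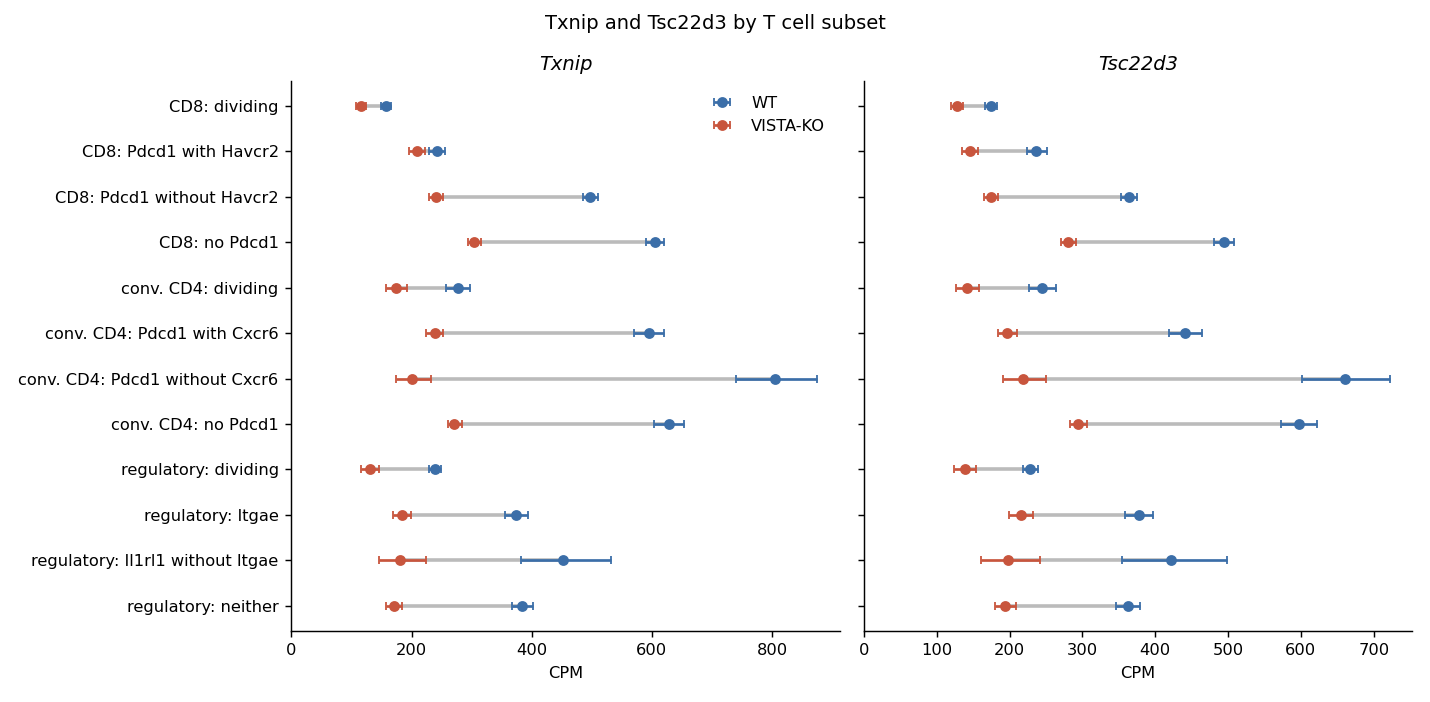
CPM of Txnip and Tsc22d3 in the 12 T cell subsets, WT in blue and VISTA-KO in red, with exact 95% Poisson intervals of counting error. Every red point is left of its blue point, and for Txnip the gap is narrowest, as a ratio, in CD8 cells with Pdcd1 and Havcr2, at 0.860.

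The shares of the subsets differed between the libraries, so VISTA-KO levels were also weighted by the share of UMIs each subset held in WT, a step added after the data had been seen. The Txnip ratio was then 0.550 in CD8, 0.428 in conventional CD4 and 0.493 in regulatory cells, and the Tsc22d3 ratio 0.566, 0.475 and 0.569. The Nr3c1 ratio in regulatory cells, 1.07 before, was 0.953 after weighting.

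The shares of cells with a UMI differed in the same direction as the levels. Cells were thinned to 2000 random UMIs apiece, which left out 290 WT and 186 VISTA-KO CD8 cells with fewer. A Txnip UMI was then found in 53.5% (52.2 to 54.9) of the WT and 37.6% (36.1 to 39.1) of the VISTA-KO CD8 cells. The shares with a Tsc22d3 UMI were 47.1% (45.8 to 48.5) and 30.7% (29.3 to 32.2). In conventional CD4 cells Txnip was found in 57.6% and 35.7% of cells and Tsc22d3 in 53.4% and 33.9%, and in regulatory cells Txnip in 43.6% and 26.3% and Tsc22d3 in 44.8% and 30.3%. Without thinning the CD8 shares were 78.9% and 66.0% for Txnip and 70.7% and 54.2% for Tsc22d3. Per1, thinned as before, was at 12.1% and 12.4% of CD8 cells and Nr3c1 at 20.7% and 19.7%. No class that should lack these genes was present for a background value, and their shares in Siglech cells, 38.6% and 38.0% for Txnip, were of the same order as in T cells.

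Within each library, Tsc22d3 was found in a larger share of the CD8 cells with Txnip than of those without. In WT CD8 cells thinned to 2000 UMIs, 53.0% (51.1 to 54.8) of cells with a Txnip UMI also had Tsc22d3, against 40.4% (38.4 to 42.3) of cells without. In VISTA-KO CD8 cells the shares were 35.6% (33.2 to 38.0) and 27.8% (26.1 to 29.6). Between the libraries Tsc22d3 was thus less frequent on both sides of the Txnip split. Ddit4 did not follow Txnip in this way, at 19.9% and 18.7% of WT CD8 cells with and without Txnip.

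Over 25 points, each a subset or the Siglech class in 1 library with at least 50 cells, the gene most like Txnip among 5761 was Tsc22d3, with a Pearson r of 0.937 on log2(CPM + 5). It was followed by Adcy7 (0.874), Rsrp1, 0610030E20Rik, Ngrn, Tmem127, Fyco1 and Smap2 (0.811). The genes most like Tsc22d3 after Txnip were Nisch (0.846), 0610030E20Rik, Adcy7, Pnisr, Stk25, Mdm4 and Rsrp1 (0.806). Within WT alone the r of Txnip with Tsc22d3 was 0.976 over 12 points, and within VISTA-KO 0.697 over 13. Of the other members, Per1 and Nr3c1 ran with the pair too, more so in WT. Per1 had an r of 0.774 with Txnip and 0.828 with Tsc22d3 in WT, and 0.252 and 0.628 in VISTA-KO. Nr3c1 had 0.708 and 0.735 in WT, and 0.0921 and 0.520 in VISTA-KO. Txnip and Ddit4 showed no such likeness over the 25 points (r = 0.02), and Per1 was most like Nr3c1 among the members (0.761). Within the libraries the r of Txnip with Ddit4 was -0.0110 in WT and -0.511 in VISTA-KO. With Fkbp5 it was 0.348 in WT and -0.524 in VISTA-KO. The members were chosen on the contrast between the libraries, which also spreads the 25 points. The search among 5761 genes was made over both libraries together. The points share libraries and depth and the dividing cells weigh on them, so these values describe the tables only.

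**Figure D4:**
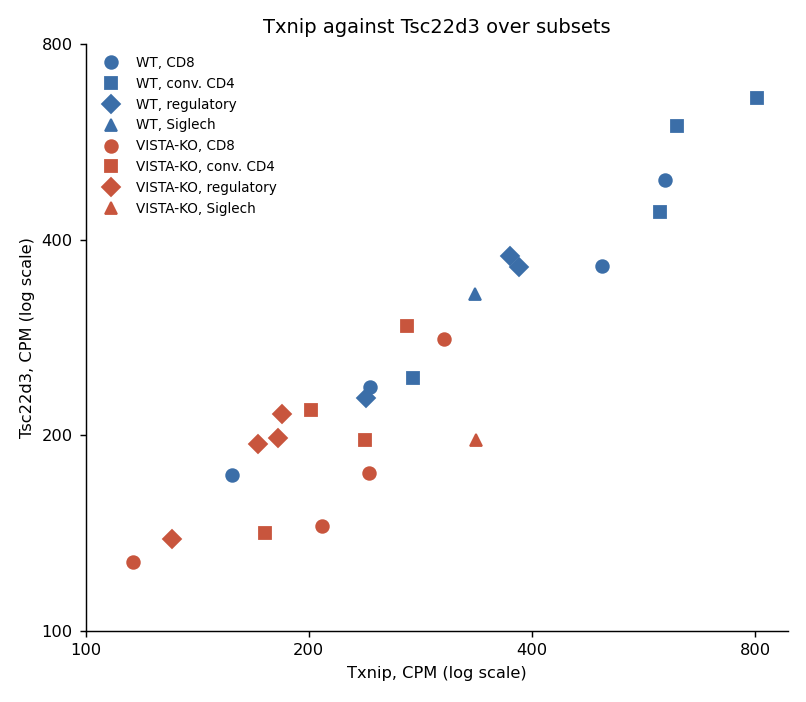
Txnip against Tsc22d3, in CPM on log axes, where each point is a subset of a class in 1 library with at least 50 cells. The points lie along 1 band (r = 0.937 over 25 points), with VISTA-KO toward the lower left and the VISTA-KO Siglech cells to the right of the band.

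In CD8 cells with T cell receptors, the ratio of Txnip was 0.508 (0.478 to 0.540) in clonotypes of 1 cell, 0.535 in those of 2 to 9 cells, 0.704 in those of 10 to 99 cells and 0.404 (0.372 to 0.438) in those of at least 100 cells. A clonotype is a set of cells with the same alpha and beta receptor chains. The Tsc22d3 ratio ran from 0.443 to 0.618 over the same groups. The last size group was carried by few clones. In WT the largest clonotype had 1034 CD8 cells and Txnip at 608 CPM, the next had 318 cells and 206 CPM. The third had 79 cells. In VISTA-KO the 3 largest had 291, 147 and 60 cells, with Txnip at 218, 162 and 95.2 CPM. Txnip in the largest WT clonotype was thus above the next WT clonotype and the 3 largest of VISTA-KO, though at least 1 smaller WT clonotype had a higher level. Fkbp5 stood at 35.6 CPM in it and at 12.7 CPM in the next. Among clonotypes with at least 20 CD8 cells, Txnip ranged from 54.3 to 1294 CPM with a median of 345 over 24 WT clonotypes, and from 45.2 to 418 CPM with a median of 195 over 12 VISTA-KO clonotypes, so the ranges overlapped. With the largest clonotype left out on both sides, the CD8 ratio was 0.612 for Txnip, 0.600 for Tsc22d3 and 0.878 for Fkbp5.

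Few of the other listed genes known to respond to the receptor were counted as lower. Ratios were below 1 for 9 of 26 tested in CD8 and 6 of 28 in conventional CD4 cells. Regulatory and Siglech cells had 8 of 28 and 13 of 25 below 1. The activity of the receptor was not tested. Of 36 listed targets other than the members, 26 were tested in CD8 cells, with 0 lower and 4 higher: Gadd45b (119 CPM (WT) and 201 CPM (VISTA-KO)), Rgs2 (74.6 and 119 CPM), Btg2 (254 and 385 CPM) and Mt1 (54.2 and 81.5 CPM). Their median log2 ratio was 0.13, beside -0.03 over all genes tested, of which 0.658% were lower and 1.05% were higher. In conventional CD4 cells 1 of 28 was lower (Mt1, 50.9 and 17.3 CPM) and 6 were higher, with a median of 0.28, and in regulatory cells 1 of 28 was lower (Il1r2, the decoy receptor of interleukin-1) and 10 were higher, with a median of 0.38. In Siglech cells 1 of 25 was lower, also Il1r2, and 2 were higher, with a median of -0.05. Over all genes tested in conventional CD4, regulatory and Siglech cells, 2.64%, 2.36% and 5.18% were lower. The higher shares were 1.33%, 2.5% and 3.37%, and the medians -0.04, -0.01 and -0.03, in the same order. Several of these, such as Btg2, Gadd45b, Zfp36 and Klf2, respond to signals other than glucocorticoid too. Btg2 and Klf2 are also on the list of quiescence genes read below, where they are counted again. The chaperones, coregulators and steroid-handling genes around the receptor had 0 genes past 1.5-fold in every class, of 19 or 20 tested.

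**Figure D5:**
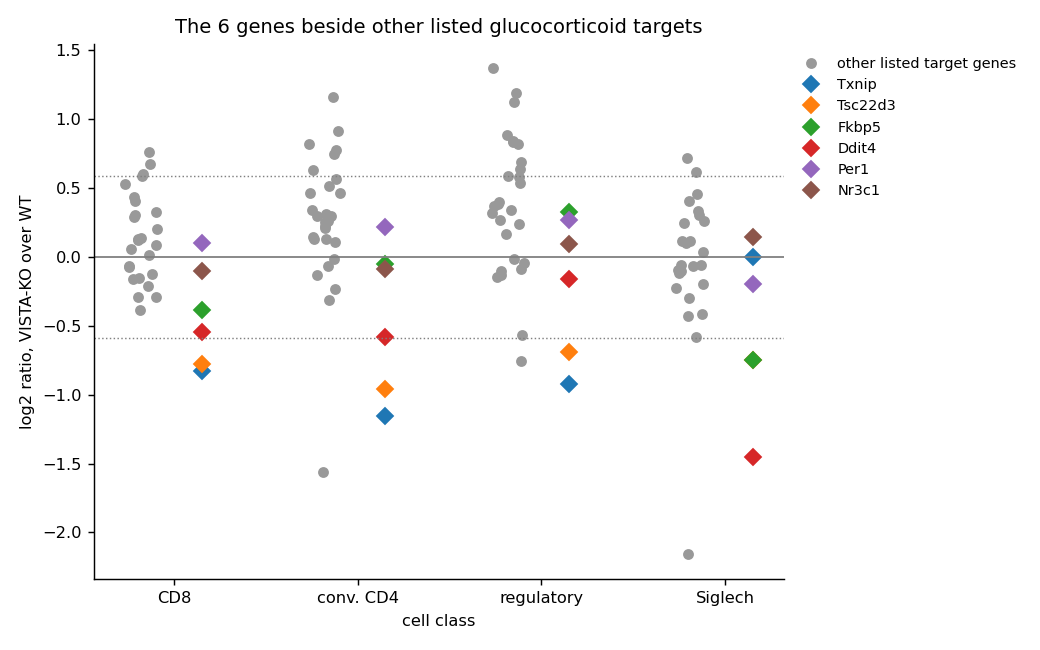
Log2 ratio of VISTA-KO over WT of the 6 genes (diamonds) and of the other listed glucocorticoid targets (grey points, 25 to 28 per class), where dotted lines mark 1.5-fold. In the T cell classes the diamonds of Txnip and Tsc22d3 lie below the dotted line while most grey points lie at or above 0.

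Few relatives of the members passed 1.5-fold. Of the arrestins with the glucose-sensing genes of Txnip, 0 of 10 in CD8 cells were past 1.5-fold, and Mxd4, at 124 CPM (WT) and 97.6 CPM (VISTA-KO), was the most different of these. Arrdc3, an alpha arrestin like Txnip, was under the floor of 20 CPM in T cells but pointed the other way, with a ratio of 1.93 (1.67 to 2.22) in CD8, 1.91 (1.48 to 2.48) in conventional CD4 and 2.22 (1.73 to 2.86) in regulatory cells, and it was counted as higher in Siglech cells at 1.84 (1.12 to 3.04). Arrdc4, another alpha arrestin, went with Txnip in part. It was under the floor in conventional CD4 cells, with a ratio of 0.596 (0.442 to 0.803), and in CD8 cells, with 0.814 (0.661 to 1.00). In regulatory cells, where it reached the floor, the ratio was 0.937 (0.786 to 1.11), and in Siglech cells 1.25 (0.862 to 1.80). The other TSC22 genes (2 tested), the FKBP family (6) and the mTORC1 brakes (2) had 0 past 1.5-fold in CD8 cells, and 0 in the other T cell classes. Nearest was Tsc22d1 in conventional CD4 cells, at 0.679. In Siglech cells 1 gene of these families, the mTORC1 brake Nprl3, was higher at 1.72. Shares over all genes were 1.05% higher in CD8 and 3.37% higher in Siglech cells. Of the clock genes 0 of 5 were past it in CD8 cells and 1 of 6, Bhlhe40, was higher in conventional CD4 cells. The list of stress genes of ATF4 and hypoxia, which also induce Ddit4, had 0 of 6 past 1.5-fold in CD8 cells. In conventional CD4 and in regulatory cells it had 0 of 7, and heat shock genes had 0 of 8 in each T cell class. Hspa1b was near the threshold in conventional CD4 (0.668) and regulatory cells (0.671), with 0.709 in CD8 cells. Hspa1a was at 0.810 in CD8, 0.700 in conventional CD4 and 0.690 in regulatory cells. Of the 8 heat shock genes, 3, 4 and 6 were below 1 in that order. In Siglech cells Ldha (0.663) was the 1 of 8 lower in the first list. Hspa1a (0.301) and Hspa1b (0.458) were the 2 of 8 lower in the second, beside 5.18% of all genes. The quiescence genes of Foxo1 and Klf2, which mark resting T cells as Txnip does, were not lower with Txnip in T cells. In CD8 cells 0 of 18 were lower and 1 was higher, Btg2, beside 1.05% of all genes higher. In conventional CD4 cells 0 of 19 were lower and 6 were higher, beside 1.33%, Klf2 from 634 CPM in WT to 1121 CPM in VISTA-KO among them. In regulatory cells 0 of 17 were lower and 5 were higher, beside 2.5%. Siglech cells had 2 of 16 lower, Tcf7 (0.605) and Lef1 (0.401), and 2 higher, beside 5.18% and 3.37%. As given above, the WT Siglech cells held more T cell RNA, and its part in the Tcf7 and Lef1 ratios was not tested.

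Immediate-early genes, which T cell receptor signals induce within minutes, were in part higher in VISTA-KO. In CD8 cells 10 of 21 were higher and 0 lower, in conventional CD4 cells 9 of 20 and 0, in regulatory cells 15 of 20 and 0, and in Siglech cells 7 of 20 higher and 2 lower. Over all genes the higher shares were 1.05%, 1.33%, 2.5% and 3.37%, and the lower share in Siglech cells was 5.18%. Not every gene of the list pointed that way. Jun had a ratio of 0.780 in CD8 and 0.795 in conventional CD4 cells, and Myc of 0.906 and 0.682, both within 1.5-fold. Nr4a1, an orphan nuclear receptor of this list, stood at 127 CPM (WT) and 370 CPM (VISTA-KO) CD8 cells. Txnip was also read apart in cells with and without a Nr4a1 UMI. In WT CD8 cells thinned to 2000 UMIs, 49.3% (45.9 to 52.7) of cells with Nr4a1 and 54.4% (52.9 to 55.8) of cells without had Txnip, and in VISTA-KO 35.2% (32.8 to 37.7) and 38.9% (37.0 to 40.8). The gap between the libraries was present on both sides of this split. At this depth a cell with no Nr4a1 UMI may still hold its RNA, and the cause of the gap was not tested. Among CD8 cells, Tsc22d3 was found more often with Nr4a1 than without in both libraries. Its shares were 51.4% and 46.3% in WT and 34.7% and 28.6% in VISTA-KO. Per1 was also more frequent with Nr4a1 in CD8 cells, at 16.5% and 11.2% in WT and 14.9% and 11.1% in VISTA-KO. For Tsc22d3 the shares were close in WT conventional CD4 cells (54.0% and 53.2%) and VISTA-KO regulatory cells (30.8% and 29.6%). Only in VISTA-KO Siglech cells was the Tsc22d3 order reversed, with overlapping intervals.

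RNA of other cell types moved with the libraries as well. The 8 plasmacytoid markers had a summed level of 1949 CPM (WT) and 984 CPM (VISTA-KO) in conventional CD4 cells. There 8 of 8 were past 1.5-fold lower, beside 2.64% of all genes tested. A Siglech UMI was held by 109 of 1768 WT and 68 of 3048 VISTA-KO conventional CD4 cells. Of these, 107 and 65 were also Siglech cells, so the sums and the count include the overlap of the classes. In CD8 cells the sum was 578 CPM and 575 CPM, with 0 of 5 tested past 1.5-fold. The list of myeloid and melanoma transcripts summed to 2194 CPM and 1278 CPM in conventional CD4 cells, 1694 CPM and 1173 CPM in regulatory cells and 941 CPM and 818 CPM in CD8 cells. These sums are mostly Cd74 and Tyrobp, and the melanoma genes moved differently. Pmel, a melanosome protein, stood at 2.99 CPM (WT) and 87.5 CPM (VISTA-KO) CD8 cells and at 0.820 and 83.1 CPM in regulatory cells, but at 80.4 and 5.55 CPM in conventional CD4 cells. Mlana, Dct and Tyrp1 went the same way as Pmel in each of these classes, with ratios from 9.56 to 25.0 in CD8, from 20.4 to 24.3 in regulatory and from 0.0621 to 0.0917 in conventional CD4 cells. In the library where they were high, 20 cells of the class held at least 99.2% of the UMIs of these 4 genes. Without the T cells that held any such UMI, a step added after the data had been seen, the Txnip ratio was 0.563 in CD8, 0.439 in conventional CD4 and 0.527 in regulatory cells, and the Tsc22d3 ratio 0.588, 0.510 and 0.624. Leaving out cells of 2 classes and T cells with any Siglech UMI gave a Txnip ratio of 0.423 in conventional CD4 cells. The part of the remaining RNA of other cells was not tested.

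Cells outside the 4 classes were read after the data had been seen. In the 1369 WT and 1264 VISTA-KO cells in none of them, Txnip had a ratio of 0.321 (0.299 to 0.344), Tsc22d3 of 0.398 (0.372 to 0.425) and Ddit4 of 0.524 (0.486 to 0.565). In the 58 WT and 46 VISTA-KO cells with no UMI of Cd3e, Cd3d, Cd3g, Cd247, Trac, Trbc1 or Trbc2 and outside the Siglech class, Tsc22d3 stood at 206 CPM in WT from 106 UMIs and had a ratio of 0.444 (0.301 to 0.645). Txnip there had a ratio of 0.669 (0.463 to 0.957) and Ddit4 of 0.156 (0.0750 to 0.294). These cells were given no name.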

How the data were processed

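Single cells of 1 WT and 1 VISTA-KO pool were measured for gene expression and for T cell receptors. Reads were aligned by the authors in Cell Ranger 5.0.0 to a GRCm38 reference. They deposited raw counts of UMIs by gene and barcode, and UMI and read counts per receptor contig, with no normalization. The labels name a 3′ kit and the methods a 5′ kit.

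Cells with at least 600 genes and under 30% mitochondrial UMIs were kept, the filters of the methods. Counts were summed per class and library and divided by all UMIs of the class (CPM). Ratios have no pseudocount. In the share of all genes past 1.5-fold, a library with under 3 counts was set to 3. Intervals are exact 95% Poisson, conditional binomial or Clopper-Pearson intervals, and PCR of unequal efficiency and pool differences lie outside them. Doublets were kept, and cells with 2 beta chains or in the top 5% of UMIs were left out in an alternative. No batch other than the library is recorded. The interval method was tested on simulated Poisson counts, the kind the intervals assume. That test does not cover counts that cluster by cell or clonotype. Python 3.11.15, numpy 2.4.6, scipy 1.17.1, pandas 2.3.3 and matplotlib 3.10.9 were used.

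Named genes were the members, up to 4 genes of each list with the most different CD8 ratio, the 8 genes most like Txnip and Tsc22d3, markers, and the 3 largest clonotypes. Genes counted as lower in a list, and Klf2 and Zfp36, were named after their values were seen. So were Arrdc3, Arrdc4, Jun, Myc, Nprl3 and Tsc22d1. The members and lists were chosen with earlier results of these data known. Lists share genes, and 9 of the 36 glucocorticoid targets are on another list. A gene that the planned subsets and a list used is not reported here, so cells without Pdcd1 were kept as 1 subset and that list was read without it.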

Additional observations from a re-analysis of the deposited data

Results flagged for a closer look

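Fkbp5 and Nr3c1 pointed in opposite directions in different classes, with intervals on opposite sides of 1, and the difference between the classes was not tested. Fkbp5 was lower in VISTA-KO in CD8 cells (ratio 0.764) and Siglech cells (0.597) and higher in regulatory cells (1.25). A single WT clone held 178 of the 798 Fkbp5 UMIs of WT CD8 cells. Dropping the top clone from both sides moved the CD8 ratio to 0.878. Clonotypes of 1 cell had a CD8 ratio of 1.05 (0.800 to 1.40), and those of 2 to 9 cells 0.844 (0.637 to 1.12). Clonotypes of 10 to 99 cells had 0.673 (0.481 to 0.929), and those of at least 100 cells 0.366 (0.252 to 0.519). Nr3c1 was lower in CD8 cells (0.930) and conventional CD4 cells (0.939) and higher in regulatory cells (1.07), where weighting the VISTA-KO subsets by their WT shares turned it to 0.953. Regulatory cells were also the class whose depth differed most between the libraries, and the Fkbp5 ratio there was 1.42 after thinning to 2000 UMIs.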

How the results depend on the processing

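Over the 9 alternatives, 8 of which could be run in Siglech cells, the Txnip and Tsc22d3 ratios of the 3 T cell classes stayed below 1 and past 1.5-fold in each one. In CD8 cells the Txnip ratio was 0.506 as a mean over cells, 0.533 without dividing cells, 0.612 without the largest clonotypes and 0.511 after thinning to 2000 UMIs. The Tsc22d3 ratio was 0.542, 0.550 and 0.555 under the first, second and last of these. In conventional CD4 cells Txnip was at 0.366 as a mean over cells, 0.469 with 2 UMIs of the class genes, 0.423 without cells of 2 classes, 0.425 without cells of 2 beta chains or the top 5% of UMIs, 0.405 without dividing cells and 0.371 after thinning, and Tsc22d3 at 0.436 (mean over cells), 0.488 (beta chains or top UMIs), 0.476 (dividing) and 0.447 (thinned). In regulatory cells Txnip was at 0.480, 0.484, 0.463 and 0.499 and Tsc22d3 at 0.566, 0.570, 0.549 and 0.573 under the same 4 settings. Siglech Txnip ran from 0.935 to 1.07. Ddit4 passed 1.5-fold in 1 of 9 alternatives in CD8 cells and 6 of 9 in conventional CD4 cells. Fkbp5 in regulatory cells reached 1.52 without cells of 2 beta chains or the top 5% of UMIs. In dividing regulatory cells, with classes and subsets set on thinned cells, 22 WT and 16 VISTA-KO cells remained, and Txnip (1.11) and Tsc22d3 (1.09) turned above 1. The cause was not tested.

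Counts of all genes past 1.5-fold moved with the floor on level. At 50 CPM they were 19 lower and 37 higher in CD8, 73 and 55 in conventional CD4, 63 and 98 in regulatory and 106 and 69 in Siglech cells, against 40 and 64, 167 and 84, 148 and 157, and 332 and 216 at 20 CPM. At 5 CPM they were 115 and 163, 527 and 174, 443 and 311, and 1038 and 663. With 5 CPM added, 120 were higher in Siglech cells. No paired analysis was possible because each genotype has 1 library. Leaving out cells of 2 classes left 10 and 14 Siglech cells and was not run there. Depth limits Fkbp5 most, with 21 UMIs in VISTA-KO Siglech cells, and the pool of mice cannot be told apart from genotype.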
